A study of Mus musculus with 6 samples.

Results

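A set of 10 transcription factor genes that mark positions along the midbrain, hindbrain and spinal cord, or the dorsal side of the neural tube, were followed across 6 arrays: En1, En2, Gbx2, Egr2, Irx3, Msx1, Msx2, Msx3, Meis1 and Meis2. They were chosen by name, as known markers of these regions, but with earlier results of these data known. Their counts beside the shares of all genes are therefore descriptive and do not test the set. They were 10 of 17015 genes with a named probe on the array, and 13 of 24375 named probes belonged to them. Every one of the 10 had a signal well above background somewhere and entered the tests, and 9 had one on each of the 6 arrays, the exception being En1. Their probes were annotated to the RefSeq transcripts NM_010133 (En1), NM_010134 (En2), NM_010262 (Gbx2), NM_010118 (Egr2), NM_008393 (Irx3), NM_010835 (Msx1), NM_013601 (Msx2), NM_010836 (Msx3), NM_010789 (Meis1) and NM_010825 (Meis2). The question was which posterior or dorsal identity epiblast stem cells take when SB431542 is added.

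Total RNA of mouse pluripotent cells of strain 129 was measured on one-colour Agilent microarrays. Mouse embryonic stem (mES) cells, labelled with stage E3.5, are naive pluripotent cells. Epiblast stem cells (EpiSCs) represent the later, primed state of pluripotency, and were here 1 line labelled E3.5 and 1 labelled E5.5. Each kind was grown in Knockout DMEM with 20% KSR, a serum replacement, either untreated or with SB431542 at 20 uM each day for 4 days. SB431542 inhibits the receptor kinases through which Nodal, Activin and TGF-beta signal. The 6 groups (mES, mES + SB431542, E3.5 EpiSC, E3.5 EpiSC + SB431542, E5.5 EpiSC and E5.5 EpiSC + SB431542) had 1 array each, and the labels do not say how many cultures stand behind an array.

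Along the head-to-tail axis of the neural tube, En1 and En2 mark the midbrain and the front of the hindbrain, and Gbx2 the hindbrain side of the border between them. Egr2 (Krox20) is switched on in segments of the hindbrain, while Irx3 is expressed along the hindbrain and spinal cord and in part of the forebrain. Across the dorsal-to-ventral axis, Msx1, Msx2 and Msx3 mark the dorsal neural tube, where BMP signals act, and Meis1 and Meis2 encode partners of Hox and Pbx proteins that are widely expressed in the posterior neural tube. None of these genes except Msx3 is limited to neural cells: Gbx2 is expressed in pluripotent cells, Egr2 in immune and Schwann cells, and Msx1, Msx2, Irx3, Meis1 and Meis2 also in mesenchyme.

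Levels are log2 intensities set against the 75th percentile of their own array, so that 0 is the 75th percentile and a difference of 1 is a 2-fold change. Probes differ in brightness, so a level is compared between arrays and not between genes. Of the spots for genes on each array, 82.6% to 85.7% were well above background and 0 were saturated. The labels held against their markers: 7 naive pluripotency markers summed to between 11770% and 15250% of the 75th percentile on the mES arrays and between 163.6% and 278.0% on the EpiSC arrays. SB431542 lowered 4 of 6 primed epiblast markers in EpiSCs: Fgf5, Dnmt3b, Pou5f1 and Nanog. The 6 summed to 10980% and 13420% on the untreated EpiSC arrays against 407.3% and 703.2% on the treated ones. They also summed to 9451% in mES and 7884% in mES + SB431542, so this sum does not separate EpiSCs from mES cells. Of the 6, Fgf5 stood at -2.62 in mES, 3.07 in E3.5 EpiSC and 4.32 in E5.5 EpiSC, whereas Pou5f1 stood at 5.59, 5.73 and 5.88. The mES pair and the E5.5 EpiSC pair shared slide 1, while slides 2 and 3 held the untreated and the treated E3.5 EpiSC array. In the E3.5 line slide and treatment therefore cannot be told apart, and the E5.5 pair gives each value within 1 slide.

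SB431542 raised Msx3, Meis1 and Irx3 in EpiSCs, by 5.85, 3.97 and 2.98 on the log2 scale. Msx1, Msx2 and Meis2 stood higher on both treated EpiSC arrays, did not pass in that fit, and passed in a fit that paired the arrays of a line. En1, En2, Gbx2 and Egr2, which include the midbrain and hindbrain-segment genes, did not pass in either fit, and all 4 differed by under 1 in the mean of the lines. In mES cells no gene of the 10 except Meis1 and Msx2 differed by 2-fold.

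**Figure D1:**
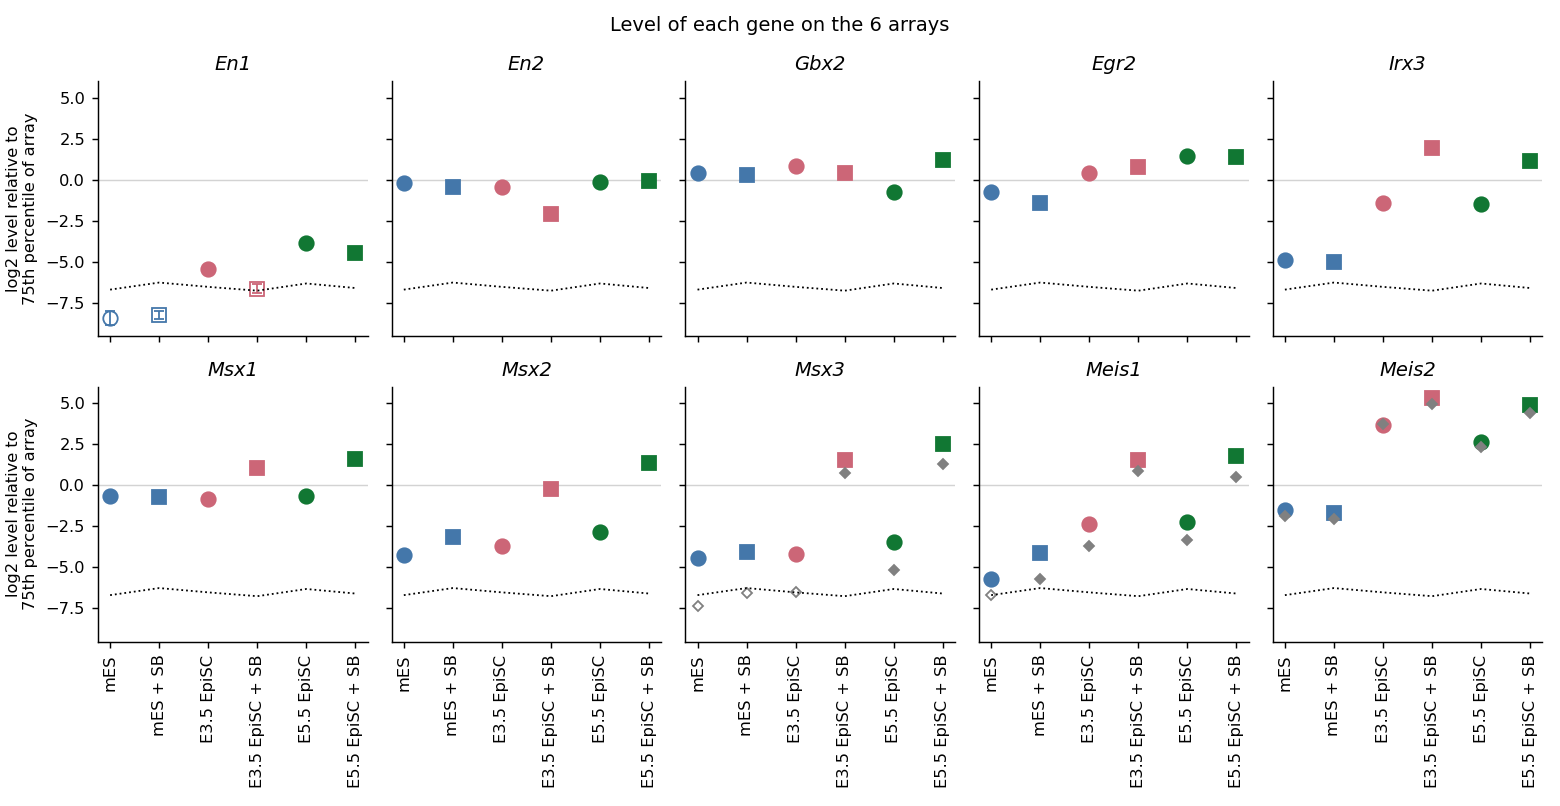
Log2 level of each of the 10 genes (vertical axis, relative to the array's 75th percentile) on the 6 arrays (horizontal axis). Circles are untreated and squares SB431542-treated arrays, coloured by cell line; open symbols were not well above background, grey diamonds show the second probe of Msx3, Meis1 and Meis2, bars are the SD over repeat spots, the dotted line is the lowest level well above background, and Irx3, Msx1, Msx2, Msx3, Meis1 and Meis2 are higher on both treated EpiSC arrays than on any untreated array.

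The test was limma on all 16152 genes with Benjamini-Hochberg adjustment, and the E3.5 and E5.5 lines served as the 2 replicates of each EpiSC arm. Of the 10 genes 3 rose, 0 fell and 7 did not pass, where 0.892% of all genes tested (144) were higher and 1.2% (194) lower in treated EpiSCs. The median difference of the 10 genes was 1.98 and that of all genes tested was -0.19. The treated and untreated arrays of a line come from the same line, so the fit with the line as a replicate block is given beside it: 6 genes rose, 0 fell and 4 did not pass, where 2.14% of all genes (346) were higher and 2.87% (464) lower. The spread behind a p-value comes from how far the 2 lines, which lay on different slides, differ within an arm. With the block it comes from how far their responses differ. In both fits limma drew the spread of each gene toward a value shared by all genes tested, so it is not that gene's alone. No line has repeat cultures, so scatter between cultures of a line was not measured. Without the treated E3.5 array, or without the treated E5.5 array, 0 of the 10 genes and 0 of all genes passed limma's test; 5 and 7 of the 10, and 2418 and 5030 of all genes, then had an unadjusted p under 0.05. In bulk RNA a change in the number of cells that express a gene and a change in RNA per cell cannot be told apart.

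The Msx genes encode homeodomain repressors that lie downstream of BMP signals in many tissues, and Msx3 is the member confined to the dorsal neural tube. The level of Msx3 was -4.41 in mES, -4.06 in mES + SB431542, -4.20 in E3.5 EpiSC, 1.52 in E3.5 EpiSC + SB431542, -3.46 in E5.5 EpiSC and 2.51 in E5.5 EpiSC + SB431542. Both treated EpiSC arrays were high, the other 4 were low, and the lowest treated EpiSC level lay far above the highest of the others. The spot intensity went from 64.7 to 5168 in the E3.5 line and from 111.4 to 8305 in the E5.5 line. The fitted rise was 5.85 ± 0.48 (SE, 2 lines; limma, adjusted p = 0.0256) and was the largest of the 10. The second Msx3 probe, not well above background on both mES arrays and the untreated E3.5 array, rose by 6.84 ± 0.54 when every probe was tested (limma, adjusted p = 0.0308). The call was lost without the treated E3.5 array (6.34, adjusted p = 0.141) and without the treated E5.5 array (5.35, adjusted p = 0.0696), both by limma.

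Msx2 stood at -4.22 in mES, -3.13 in mES + SB431542, -3.72 in E3.5 EpiSC, -0.20 in E3.5 EpiSC + SB431542, -2.87 in E5.5 EpiSC and 1.37 in E5.5 EpiSC + SB431542. The treated EpiSC arrays were again the highest, and they differed from each other by 1.57, while the 10 repeat spots of the probe had an SD between 0.06 and 0.13. The fitted difference was 3.88 ± 0.64 (SE; limma, adjusted p = 0.0663), and with the line as a block the adjusted p was 0.0163. It also passed when only genes above background on all 6 arrays were tested (limma, adjusted p = 0.0406). In mES cells Msx2 was higher by 1.09 with SB431542, without a replicate.

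Msx1 stood at -0.66 in mES, -0.69 in mES + SB431542, -0.81 in E3.5 EpiSC, 1.03 in E3.5 EpiSC + SB431542, -0.63 in E5.5 EpiSC and 1.60 in E5.5 EpiSC + SB431542. The 4 other arrays lay within 0.2 of each other, and both treated EpiSC arrays lay above all of them. The fitted difference was 2.03 ± 0.32 (SE; limma, adjusted p = 0.0620), and the block gave an adjusted p of 0.0362.

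Irx3 encodes a homeodomain protein of the Iroquois family. Its level was -4.91 in mES, -4.99 in mES + SB431542, -1.41 in E3.5 EpiSC, 1.95 in E3.5 EpiSC + SB431542, -1.47 in E5.5 EpiSC and 1.12 in E5.5 EpiSC + SB431542. The arrays fell into 3 steps with no overlap, with mES cells lowest, untreated EpiSCs between and treated EpiSCs highest. SB431542 raised it in EpiSCs by 2.98 ± 0.37 (SE, 2 lines; limma, adjusted p = 0.0432). That call lies near the threshold: it was lost with quantile normalization (3.05, limma adjusted p = 0.0514) and without any single EpiSC array (2.56 to 3.39, limma adjusted p from 0.0696 to 0.141).

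Meis1 and Meis2 encode TALE homeodomain proteins that bind DNA with Pbx and Hox partners. Meis1 stood at -5.73 in mES, -4.15 in mES + SB431542, -2.34 in E3.5 EpiSC, 1.54 in E3.5 EpiSC + SB431542, -2.26 in E5.5 EpiSC and 1.79 in E5.5 EpiSC + SB431542. The 2 lines lay within 0.3 of each other in each state, and the 3 steps seen for Irx3 recurred. The fitted rise was 3.97 ± 0.27 (SE, 2 lines; limma, adjusted p = 0.0228), and the second probe gave 4.19 ± 0.32 with every probe tested (limma, adjusted p = 0.0308). It did not pass without the treated E3.5 array (4.09, limma adjusted p = 0.141) or without the treated E5.5 array (3.84, limma adjusted p = 0.0696). Meis1 was the gene among the 10 with the widest range over the arrays, 7.52.

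Meis2 stood at -1.51 in mES, -1.70 in mES + SB431542, 3.64 in E3.5 EpiSC, 5.30 in E3.5 EpiSC + SB431542, 2.66 in E5.5 EpiSC and 4.87 in E5.5 EpiSC + SB431542. All 4 EpiSC arrays were far above both mES arrays, and within the EpiSCs the treated arrays were above the untreated ones. The difference with SB431542 was 1.93 ± 0.43 (SE; limma, adjusted p = 0.111), and with the line as a block the adjusted p was 0.0439. The second probe gave the same order of arms, at -1.86, -2.08, 3.72, 4.95, 2.30 and 4.42 on the arrays in the order just given, and a difference of 1.67 ± 0.56 (limma, adjusted p = 0.229 with every probe tested).

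The proximal promoters of the Msx genes that stood highest over their starting level, and of Irx3 and Meis1, are printed because these genes were higher together on the treated EpiSC arrays. Each is the 250 bases before the RefSeq transcription start, 5′ to 3′ on the gene's strand, in assembly GRCm38.p6. Capitals mark CAGAC, the letters bound by Smad proteins, the effectors of the receptors that SB431542 blocks, or TAATTA, a core recognised by homeodomain proteins; the Meis1 window holds neither.
Msx3, chr7:140049089-140049338, minus strand: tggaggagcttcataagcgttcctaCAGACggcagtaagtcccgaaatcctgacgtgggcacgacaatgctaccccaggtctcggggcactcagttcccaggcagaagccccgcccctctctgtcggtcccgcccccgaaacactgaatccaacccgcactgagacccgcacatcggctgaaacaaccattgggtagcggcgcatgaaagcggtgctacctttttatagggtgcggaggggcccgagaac
Msx2, chr13:53472781-53473030, minus strand: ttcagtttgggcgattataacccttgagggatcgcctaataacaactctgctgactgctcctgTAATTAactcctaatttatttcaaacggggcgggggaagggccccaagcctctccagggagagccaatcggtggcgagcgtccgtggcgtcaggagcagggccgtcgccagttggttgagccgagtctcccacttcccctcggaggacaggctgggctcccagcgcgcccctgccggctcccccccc
Irx3, chr8:91801655-91801904, minus strand: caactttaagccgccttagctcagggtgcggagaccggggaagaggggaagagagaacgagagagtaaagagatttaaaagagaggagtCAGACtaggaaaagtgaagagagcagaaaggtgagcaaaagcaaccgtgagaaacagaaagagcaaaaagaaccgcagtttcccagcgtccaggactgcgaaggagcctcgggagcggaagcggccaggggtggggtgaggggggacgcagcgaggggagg
Meis1, chr11:19018970-19019219, minus strand: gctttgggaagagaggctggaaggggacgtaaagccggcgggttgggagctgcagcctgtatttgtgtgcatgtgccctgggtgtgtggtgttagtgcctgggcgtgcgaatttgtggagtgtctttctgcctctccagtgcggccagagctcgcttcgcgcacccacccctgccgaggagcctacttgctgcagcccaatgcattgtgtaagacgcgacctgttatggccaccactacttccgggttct
A window was listed for 9 of the 10 genes, with En2 the one without. Searched on both strands, CAGAC lay in the windows of Msx3, Irx3, Meis2 and Egr2 (4 of 9), the last with 3 of its 5 partly overlapping windows. Of the 32851 promoters of the same length 42.2% held it, and counted like the members, in any window of a gene, 45.8% of 27025 genes did. TAATTA lay in that of Msx2 only (1 of 9), against 4.84% of all promoters and 5.65% of genes. The Meis core TGACAG was found only for En1 (15.9% of all promoters, 18.0% of genes), and the GC-rich Smad element GGCGCC only for Gbx2 (9.59% of promoters, 10.8% of genes). The GC content was 60.0% for Msx3, 61.6% for Msx2, 56.0% for Irx3, 59.6% for Meis1 and 68.0% for Msx1, above the median of 52.4% over all promoters, and 47.6% for Meis2, below it. The number of CpG pairs was 18 for Msx3, 16 for Msx2, 13 for Irx3, 13 for Meis1, 20 for Msx1 and 7 for Meis2, where the median promoter held 6. These matches describe letters in the window and not binding.

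En1 and En2 encode the Engrailed repressors. En1 was not well above background on both mES arrays and on the treated E3.5 array (4 of 10 repeat spots above), and stood at -5.42 in E3.5 EpiSC, -3.86 in E5.5 EpiSC and -4.46 in E5.5 EpiSC + SB431542. The treated array was the lower one in both EpiSC lines, by at least 2.31-fold in the E3.5 line and by 0.60 on the log2 scale in the E5.5 line. The fitted difference of -0.90 ± 0.91 (SE; limma, adjusted p = 0.600; 95% confidence interval -3.29 to 1.49) was smaller than its error, and it became 0.18 without the treated E3.5 array. En1 was thus not higher with SB431542 in either EpiSC line.

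En2 stood at -0.20 in mES, -0.44 in mES + SB431542, -0.46 in E3.5 EpiSC, -2.09 in E3.5 EpiSC + SB431542, -0.13 in E5.5 EpiSC and -0.05 in E5.5 EpiSC + SB431542. Of these 6 arrays, 5 lay within 0.5 of each other and only the treated E3.5 array was low. Its 10 repeat spots had an SD of 0.22, against 0.04 to 0.06 on the other arrays, which measures scatter within an array and not between cultures. The fitted difference was -0.78 ± 0.72 (SE; limma, adjusted p = 0.567; interval -2.67 to 1.11), and without the treated E3.5 array it was 0.24. The treated E3.5 array was the only array on slide 3, so slide and treatment cannot be told apart for this low value.

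Gbx2 stood at 0.39 in mES, 0.31 in mES + SB431542, 0.81 in E3.5 EpiSC, 0.42 in E3.5 EpiSC + SB431542, -0.72 in E5.5 EpiSC and 1.20 in E5.5 EpiSC + SB431542. The untreated E5.5 array was the low one, and the other 5 lay within 0.9 of each other. SB431542 came with a difference of 1.92 in the E5.5 line and -0.39 in the E3.5 line, and the mean, 0.77 ± 0.62 (SE; limma, adjusted p = 0.516; interval -0.85 to 2.38), was -0.0023 without the untreated E5.5 array.

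Egr2 stood at -0.75 in mES, -1.45 in mES + SB431542, 0.43 in E3.5 EpiSC, 0.78 in E3.5 EpiSC + SB431542, 1.42 in E5.5 EpiSC and 1.38 in E5.5 EpiSC + SB431542. Every EpiSC array was above both mES arrays, and within the EpiSCs the line separated the arrays more than the treatment did. The difference with SB431542 was 0.15 ± 0.46 (SE; limma, adjusted p = 0.861; interval -1.04 to 1.35), so a gain as large as that of Irx3 lay outside the interval. It turned to -0.34 without the untreated E3.5 array and to -0.15 without the treated E5.5 array.

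**Figure D2:**
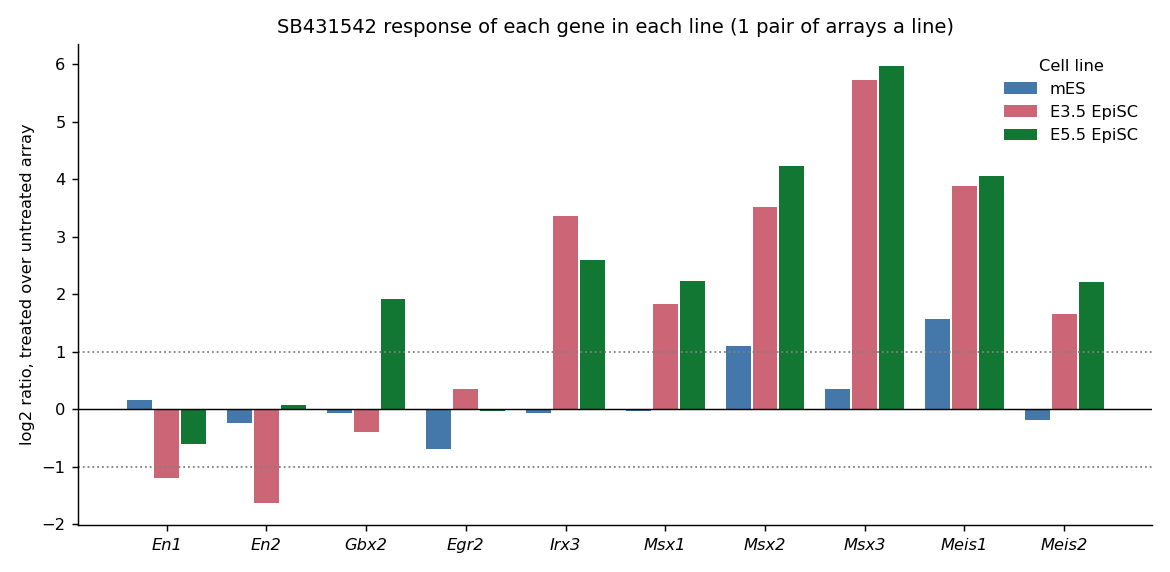
Log2 ratio of the treated over the untreated array (vertical axis) for each gene (horizontal axis) in the mES, E3.5 EpiSC and E5.5 EpiSC lines, 1 pair of arrays each, with no error bar. Dotted lines mark 2-fold; Irx3, Msx1, Msx2, Msx3, Meis1 and Meis2 are past it in both EpiSC lines, and Msx2 (1.09) and Meis1 (1.58) in mES cells, while the En1 bars rest on signals at background in mES cells and on the treated E3.5 array.

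Taken line by line, without a test, 6 of the 10 genes were higher by at least 2-fold in treated E3.5 EpiSCs and 2 were lower (En1 and En2), where 11.4% and 19.7% of all genes were. In the E5.5 line, whose arrays shared a slide, 7 were higher and 0 lower, where 6.48% and 8.74% of all genes were. In that line the ratios were 5.97 for Msx3, 4.24 for Msx2, 4.05 for Meis1, 2.59 for Irx3, 2.23 for Msx1, 2.20 for Meis2 and 1.92 for Gbx2. In the E3.5 line they were 5.72 for Msx3, 3.88 for Meis1, 3.51 for Msx2, 3.36 for Irx3, 1.83 for Msx1 and 1.66 for Meis2. Those 6 genes differed by at most 0.77 between lines (Irx3), less than the smallest of their ratios. In mES cells 2 of the 10 were higher (Msx2 and Meis1) and 0 lower, against 1.41% and 1.13% of all genes.

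Whether SB431542 acted differently on EpiSCs and on mES cells was tested as an interaction. It called 0 of the 10 genes and 0% of all genes (limma with Benjamini-Hochberg adjustment; 5 of the 10 and 1109 of 16152 had an unadjusted p under 0.05), and with the line as a block 0 as well. The response was larger in EpiSCs by 5.49 ± 0.82 for Msx3 (limma, adjusted p = 0.303), 3.05 ± 0.64 for Irx3 (limma, adjusted p = 0.407), 2.78 ± 1.1 for Msx2 (limma, adjusted p = 0.75) and 2.39 ± 0.46 for Meis1 (limma, adjusted p = 0.365). For Msx1 it was 2.06 ± 0.55 (limma, adjusted p = 0.524) and for Meis2 2.12 ± 0.75 (limma, adjusted p = 0.694). The unadjusted 95% intervals of Msx3 (3.33 to 7.66), Irx3 (1.36 to 4.74), Meis1 (1.18 to 3.60), Msx1 (0.60 to 3.51) and Meis2 (0.16 to 4.08) lay above 0, that of Msx2 (-0.10 to 5.67) did not. The mES side of this test is 1 pair of arrays, assumed to vary like the EpiSC lines.

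**Figure D3:**
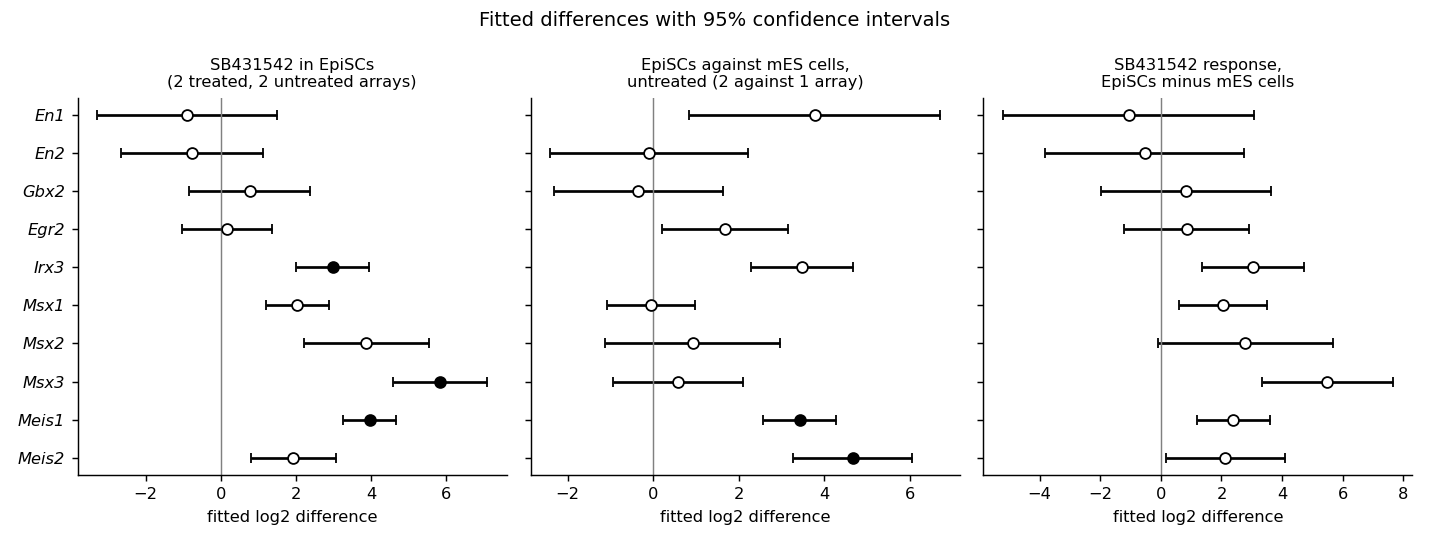
Fitted log2 difference (horizontal axis) of each gene in 3 comparisons: SB431542 in EpiSCs, untreated EpiSCs against mES cells, and the SB431542 response of EpiSCs minus that of mES cells. Points are limma estimates, bars unadjusted 95% confidence intervals, and filled points passed at an adjusted p under 0.05 without the block: Irx3, Msx3 and Meis1 on the left, Meis1 and Meis2 in the middle and none on the right.

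Untreated EpiSCs were compared with untreated mES cells, a single array assumed to vary like the EpiSC lines, since it has no spread of its own; both Meis genes passed. Meis2 rose by 4.66 ± 0.53 (SE, 2 EpiSC lines against 1 mES array; limma, adjusted p = 0.0395) and Meis1 by 3.42 ± 0.33 (limma, adjusted p = 0.0286), so 2 of the 10 genes rose and 0 fell, where 0.39% of all genes tested (63) were higher and 1.11% (179) lower in EpiSCs. Irx3 was higher by 3.47 ± 0.45 and missed the threshold (limma, adjusted p = 0.0508). Egr2 stood 1.68 ± 0.56 higher (limma, adjusted p = 0.250), and En1 at least 4.14-fold higher, with mES cells at background (limma, adjusted p = 0.209). That En1 bound was 2.41-fold for the E3.5 line alone and 7.13-fold for the E5.5 line alone, and under normexp correction the fitted difference was 1.25 on the log2 scale. The other 5 genes did not pass: the differences were 0.58 for Msx3 (interval -0.95 to 2.11; 1.55 on its second probe), 0.93 for Msx2 (-1.11 to 2.97), -0.05 for Msx1 (-1.08 to 0.97), -0.09 for En2 (-2.41 to 2.22) and -0.34 for Gbx2 (-2.32 to 1.64). Of these, Msx2 (1.35) and Gbx2 (-1.11) were past 2-fold in the E5.5 line alone, with 0.51 and 0.43 in the E3.5 line. Meis1 was called under neither normexp background correction (2.21, limma adjusted p = 0.0548) nor the loss of any EpiSC array (adjusted p from 0.0579 to 0.0874). Meis2 was not called with quantile normalization (limma, adjusted p = 0.0534), with the mean over its probes (limma, adjusted p = 0.0527) or without a treated EpiSC array. The treated arrays do not enter this comparison's differences, which stayed at 4.66 for Meis2 and 3.42 for Meis1 without either of them. Leaving out a treated array changed only the estimate of spread and its degrees of freedom.

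The untreated lines lay within 2-fold of each other in 8 of the 10 genes. Of these, Egr2 (0.99 higher in E5.5) and Meis2 (0.98 lower) were only just inside that limit. En1 was higher in E5.5 than in E3.5 EpiSCs by 1.57, where 5.93% of all genes were past 2-fold, and Gbx2 lower by 1.54 (3.75% of all genes). After treatment En1 was at least 4.51-fold higher in the E5.5 line, En2 higher by 2.04 and Msx2 by 1.57, where 10.6% of all genes were past 2-fold, and none was lower (5.91% of all genes). Each of these rests on 1 array a side and on different slides.

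Other genes of the same regions, listed for this comparison with earlier results of these data known, placed these values among their neighbours. Of 16 tested genes listed under hindbrain segments, not all of them specific to these, 4 rose with SB431542 in EpiSCs. Of the rest 0 fell and 12 did not pass (median 1.60, limma). The risers were Nr2f1 (6.19) and Nr2f2 (5.57), nuclear receptors, Cyp26b1 (4.39), which breaks down retinoic acid, and Hoxb2 (3.46), and with the line as a block 6 rose, Hoxa2 (3.27) and Epha4 (1.76) being the further ones. The other Hox genes of the list did not pass, with Hoxb3 at 2.76, Hoxb1 at 2.65, Hoxb4 at 0.48, Hoxa3 at -0.04 and Hoxa4 at -0.07 among them. Of 19 tested spinal cord and trunk genes 0 rose, 1 fell (T, the mesoderm and tail-bud factor Brachyury, at -4.95) and 18 did not pass (median -0.51). Hoxa9, at 1.94, was the single riser there with the block. Cdx2 passed in neither fit, but was not well above background on either treated EpiSC array, at least 28.7-fold lower in the mean of the lines. Its untreated level was 0.62 in the E3.5 and -4.28 in the E5.5 line. Hoxb8 went from -3.04 to -2.08 in the E3.5 line and from -4.68 to -6.46 in the E5.5 line. Hoxa7 likewise went from -1.09 to 0.23 and from -2.27 to -3.56, whereas Hoxa9 was higher in both lines.

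Of 12 genes of the midbrain-hindbrain organizer 0 rose and 1 fell, Fgf8 (-5.83), the signal of the organizer that primed epiblast also makes; Sp5 (-2.05) fell too with the block. Pax2 (-0.33), Pax5 (-1.17) and Wnt1 (1.24), which act with En1 and En2, did not pass. Of 10 forebrain and anterior genes 0 rose and 0 fell, and with the block Otx2 (-4.05) and Otx1 (-2.39) fell. These counts describe the lists, and no test compared a list with the rest of the genes.

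Among 15 dorsal neural tube genes 3 rose, Zic1 (5.78), Pax3 (5.33) and Zic4 (4.94), 0 fell and 12 did not pass (median 1.43), and the block added Pax7 (2.66) and Wnt3a (3.77). Pax3 stood at -3.99 and -2.97 on the untreated and at 1.93 and 1.77 on the treated E3.5 and E5.5 arrays. The roof plate and dorsal interneuron genes Atoh1 (0.41), Gdf7 (0.33) and Olig3 (1.63) did not pass. Of 15 ventral and intermediate genes none passed (median 0.80), and with the block Dbx1 (3.59) rose. Shh, the ventral signal, was at -1.88 on the treated E3.5 array and not well above background on the treated E5.5 array. The lines did not share it, nor some other genes of this list. With SB431542 Nkx2-2 went from -4.91 to -0.56 in the E3.5 line and from -4.45 to -4.61 in the E5.5 line. Nkx6-1 (-0.52 to 2.28), Nkx6-2 (1.91 to 4.29) and Foxa1 (-3.70 to -1.17) were also higher in the E3.5 line only. Olig2 was higher mainly in the E5.5 line (-5.71 to -3.15, against -5.00 to -4.68 in the E3.5 line).

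Of 9 relatives of Irx3, Gbx2 and Egr2, 3 rose, Irx2 (4.58), Irx5 (4.04) and Irx1 (3.69), while Irx4 (-0.10), Irx6 (0.75), Gbx1 (1.11), Egr1 (-0.43), Egr3 (-0.68) and Egr4 (-1.26) did not pass. Of 9 Meis relatives and partners none passed with SB431542 (median 0.86), with Meis3 at 1.27 and Pbx3 at 0.88. Of 13 BMP response genes none passed (median 1.08), and with the block Id1 (2.33) and Id3 (1.70) rose and Smad7 (-1.96) fell. Id4 (2.98) and Id2 (2.49) were also higher in both EpiSC lines and Bambi (-1.58) lower in both, but these passed in neither fit. The fall of Smad7 was not limited to EpiSCs: it stood at 1.23 in mES and -2.59 in mES + SB431542, without a replicate. Whether it follows BMP signals here was not tested. The median over all genes tested was -0.19, and the background share of higher genes is the one given above.

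**Figure D4:**
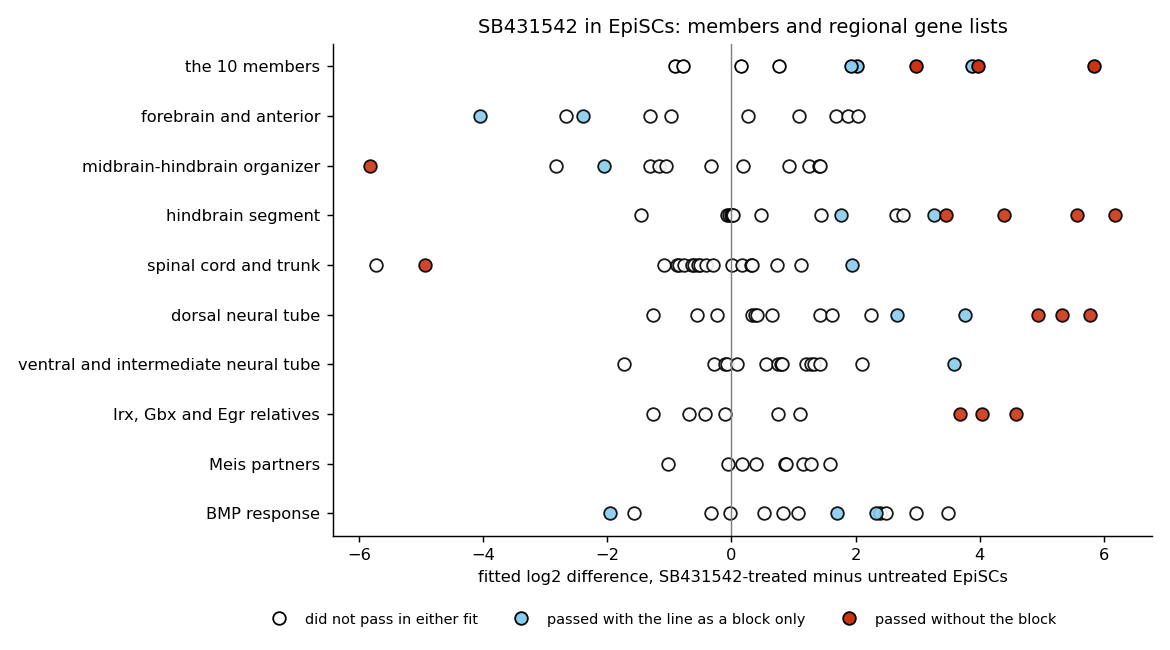
Fitted log2 difference, SB431542-treated minus untreated EpiSCs (horizontal axis), of the 10 genes and of each tested gene in 9 lists of related genes (rows). Red points passed limma's test at an adjusted p under 0.05 without the block, blue points with the line as a block only, and open points in neither fit; red points above 0 are seen for the 10 genes, the hindbrain segment, dorsal neural tube and Irx, Gbx and Egr relatives.

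Markers of cell types that also express some of these genes moved as follows. Of 8 neural progenitor markers 2 rose, Hes5 (6.97) and Pou3f2 (5.09), and 0 fell, and their sum went from 1477% to 16000% of the 75th percentile in the E3.5 line and from 991.7% to 7773% in the E5.5 line. Sox1, at 0.56, did not pass, and with the block Pax6 (3.12) and Fabp7 (3.25) rose too. Of 7 neural crest markers 1 rose, Ednrb (5.63), and their sum went from 196.6% and 301.9% on the untreated to 937.3% and 670.6% on the treated arrays. Ednrb carried most of that sum, and the median level of the 7 went from -1.52 to -2.32 in the E3.5 line and from -1.17 to -2.16 in the E5.5 line. Foxd3 (-2.43), Snai2 (-0.97), Ets1 (-0.39), Tfap2a (0.09), Twist1 (0.53) and Sox9 (1.64) did not pass, and with the block Foxd3 fell. All 7 were above background on every array. Of 10 fibroblast markers none passed, and they summed to 7482% and 11510% on the untreated and 6020% and 11610% on the treated E3.5 and E5.5 arrays. Their median level, which the brightest markers do not set, went from 0.40 to 1.63 in the E3.5 line and from 2.66 to 1.38 in the E5.5 line. In the E3.5 line Col1a1 went from 1.14 to 3.14, Col3a1 from -0.64 to 2.23 and Postn from -3.75 to -1.46, and in the E5.5 line Col1a1 went from 3.71 to 1.96, Col3a1 from 2.17 to 0.81 and Postn from -1.45 to -4.04. Of 8 mesoderm markers none passed, and they summed to 699.8% and 316.4% on the untreated and 120.5% and 162.8% on the treated arrays. Tcf15 carried most of the untreated sums, at 2.51 and 0.89 against -1.31 and -0.88 on the treated arrays. It was also high in mES cells (3.16), so this sum does not follow mesoderm alone. The median level of the 8 went from -3.28 to -3.69 in the E3.5 line and from -3.32 to -3.50 in the E5.5 line. Of 5 surface ectoderm markers none passed, their sums were 168.9% and 226.3% against 61.39% and 95.85%, and Trp63 was not well above background on either treated EpiSC array. Tfap2c, which was also high in mES cells (2.75), carried most of the untreated sums, and with the block it fell (-2.11). The median level of the 5 went from -2.66 to -3.16 in the E3.5 line and from -2.72 to -2.80 in the E5.5 line. The part of such cells in the levels of Msx1, Msx2, Irx3, Meis1 and Meis2 was not tested.

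The genes with the most similar profiles over the 6 arrays were found among 15549 genes above background on at least 3 arrays, by the distance between log2 levels centred on each gene's mean, for the 5 genes with the widest range. Nearest to Meis1 were Pcdh8 (distance 0.81), Zfp503 (0.81) and Plxna2 (1.25), and nearest to Irx3 were Prss23 (0.55), Lrrc4b (0.56) and Tox3 (0.77). Nearest to Msx3 were Cck (0.94), Nr2f2 (1.30) and Pou3f2 (1.36). For Msx2 they were Mylk (1.31), Irx2 (1.37) and Crabp1 (1.39), and for Meis2 Lrrc4b (1.18), Pcdhb20 (1.20) and Rgs8 (1.20). Cck, for example, stood at -4.47, -4.30, -3.93, 1.05, -2.94 and 1.96 on the arrays in the order mES, mES + SB431542, E3.5, E3.5 + SB431542, E5.5 and E5.5 + SB431542, low on 4 and high on the treated EpiSC arrays like Msx3.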

How the data were processed

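One-colour arrays were hybridised with Cy3-labelled total RNA of the 6 samples, per the labels. The deposited intensity of each spot is linear, and per the file headers Feature Extraction 10.7.1.1 had already subtracted background and removed spatial trends (version 9.1 in the submitters' processing notes). The deposited value table gave exactly equal intensities (no tolerance) at 45018 of 45018 spots on each array. The flags for background, saturation and outliers are the authors' yes-or-no marks. Computed here were log2 values minus each array's 75th percentile (intensity 1190 to 1801), without control and outlier spots, averaged over repeat spots (median coefficient of variation 5.42% to 7.76%). The number of arrays limits the precision. Probes took gene names by matching transcript accessions to the RefSeq table of GRCm38.p6 (24375 of 41174 matched), since no gene name column was used here. A probe was well above background where more than a 0.5 share of its spots was, and a gene took its brightest probe. limma 3.58.1 in R 4.3.3 fitted 4 arms over 6 arrays (2 residual degrees of freedom; 1 with the line as a replicate block). Each line pairs its arrays, whose deviations from the arm means correlated at 0.274 over 16152 genes. Genes named were the 10 members, up to 4 called genes per list with the largest values, and the 3 nearest profiles of 5 members; others were chosen after their values were seen, and some list genes are not reported here. Members and lists were chosen with earlier results of these data known, and motifs after looking at a wider set. The normexp alternative used the median spot signal in place of the planned mean. Code was tested on simulated data.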

Additional observations from a re-analysis of the deposited data

Results flagged for a closer look

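For En2, Gbx2 and Egr2 the difference with SB431542 had opposite signs in the 2 EpiSC lines, each line being 1 pair of arrays, and the gap between lines was not tested. The En2 and Egr2 values of the E5.5 line are near 0, and those of Egr2 are within 2-fold in both lines. En2 differed by 0.07 in the E5.5 line and -1.63 in the E3.5 line, a gap of 1.71. Gbx2 differed by 1.92 in the E5.5 line and -0.39 in the E3.5 line, a gap of 2.31. Egr2 differed by -0.04 in the E5.5 line and 0.35 in the E3.5 line, a gap of -0.39, the smallest of the 3. The E3.5 arrays lay on 2 slides and the E5.5 arrays on 1.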

How the results depend on the processing

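For SB431542 in EpiSCs, the 3 of 10 genes called became 5 when only genes above background on all 6 arrays were tested and 6 with the line as a replicate block, and ranged from 0 to 3 when 1 array was left out. The count over all genes, 338, became 540 with that filter, 810 with the block and 587 with every probe tested, and ranged from 0 to 338 without 1 array (195 without the untreated E3.5 array, 0 without either treated EpiSC array). For EpiSCs against mES cells, the 2 genes called became 1 with normexp correction, quantile normalization or the mean over probes, and 0 to 2 without 1 array. The count of 242 over all genes became 457 with every probe tested and 0 to 242 without 1 array (0 without either treated EpiSC array). The interaction gave 0 under every setting run. Signs turned only where 1 array was left out, and only for values that did not pass. Against mES cells the range was -0.26 to 0.072 for En2 and -0.15 to 0.036 for Msx1 (highest without the untreated E3.5 array), and -1.11 to 0.43 for Gbx2 (highest without the untreated E5.5 array). With SB431542 it was -1.99 to 0.18 for En1 and -1.80 to 0.24 for En2 (highest without the treated E3.5 array), -0.0023 to 1.53 for Gbx2 (lowest without the untreated E5.5 array) and -0.34 to 0.65 for Egr2 (also -0.15 without the treated E5.5 array). In the interaction it was -2.15 to 0.020 for En1 and -1.56 to 0.48 for En2 (highest without the treated E3.5 array). The cause was not tested. Irx3 passed against mES cells with median scaling (limma, adjusted p = 0.0477) and the filter on all 6 arrays (limma, adjusted p = 0.0402), and Msx1 passed with SB431542 under normexp (limma, adjusted p = 0.0487) and that filter (limma, adjusted p = 0.0386). The block changed no other call among the 10 genes than those of Msx1, Msx2 and Meis2. Normexp moved the median of all genes from -0.19 to -0.33 with SB431542, from -0.06 to 0.13 against mES cells and from -0.21 to -0.35 in the interaction. Slide as a random block was not run, because its correlation was not estimable from 3 slides. Of the 10 genes, signal over background limits En1, whose probe was at background on 3 arrays.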
